A study of Drosophila melanogaster with 23 samples.

Results

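The 6 genes described here encode the histone variants and the embryonic linker histone of Drosophila melanogaster: BigH1 (FBgn0038252), cid (FBgn0040477), His2Av (FBgn0001197), His3.3A (FBgn0014857), His3.3B (FBgn0004828) and His4r (FBgn0013981). They were taken by a list of gene identifiers, by a rule that uses no measured value, and are 6 of the 10622 genes and 16 of the 24730 transcription start site clusters (TSCs) of the series. A TSC is a group of neighbouring transcription start sites, treated as a promoter. Whole embryos of the strain y; cn bw sp were frozen in 23 successive windows of 1 hour, from 0-1 h to 22-23 h after egg laying, and each window gave 1 library, so no window has a replicate. The embryos came from population cages, so every library pools many animals and all tissues. RNA was profiled by RAMPAGE, which sequences the 5′ ends of capped transcripts. Values are RPM, the reads of a gene scaled by the authors to a fixed total of reads in TSCs, and because 1 read marks 1 transcript start, RPM does not scale with transcript length.

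Histones package DNA into nucleosomes. The canonical histones are made during DNA replication from clustered genes, whereas replacement histones such as H3.3 come from genes outside those clusters, with mRNAs made throughout the cell cycle. H3.3 and the H2A variant H2Av are placed into chromatin by dedicated chaperones and remodelers, Cid is the centromeric H3 that marks where kinetochores form, and BigH1 is the linker histone of the germ line and early embryo, which gives way to somatic H1 as zygotic transcription begins.

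The libraries held 286206 (5-6 h) to 14705005 (1-2 h) reads, with a median of 2664024, so that 1 read was worth between 0.068 and 3.49 RPM. The 50 most abundant genes took 16.6% of the reads at 0-1 h and 45.7% at 17-18 h. Among 17 stage markers, osk was highest at 0-1 h, ftz and sna at 3-4 h, and Mhc, a muscle myosin, at 20-21 h. Maternal bcd was highest at 1-2 h but still had 44.7 to 160 RPM in the windows of 16-23 h. The markers repo (at most 10.5 RPM) and Hml (at most 8.88 RPM) were too low to place a stage. Because late libraries are dominated by few genes, differences are also given under TMM scaling (edgeR), which sets the bulk of genes equal between libraries. The median of all 8716 genes tested in the difference of 16-23 h minus 8-16 h was -0.65 on the log2 scale with RPM and -0.12 with TMM, and late differences below are read against that shift. In whole embryos, fewer cells of a type and less RNA per cell cannot be told apart.

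Ordered by their median over the 23 windows, His4r stood at 1411 RPM, His3.3B at 454 RPM, His2Av at 199 RPM, His3.3A at 64.1 RPM, BigH1 at 30.3 RPM and cid at 8.42 RPM. The upper part of this order held in nearly every library. His4r was above His3.3B in 23 of 23 windows and His3.3B was above His2Av in 22 of 23, the exception being 2-3 h. BigH1 moved through the order. It was above His3.3B, His2Av and His3.3A in 0-1, 1-2 and 2-3 h, all with counting intervals apart, and it stood at 839 RPM beside 818 RPM for His4r at 1-2 h, where their intervals overlapped. From 4-5 h on it lay below all 4 of these genes.

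**Figure D1:**
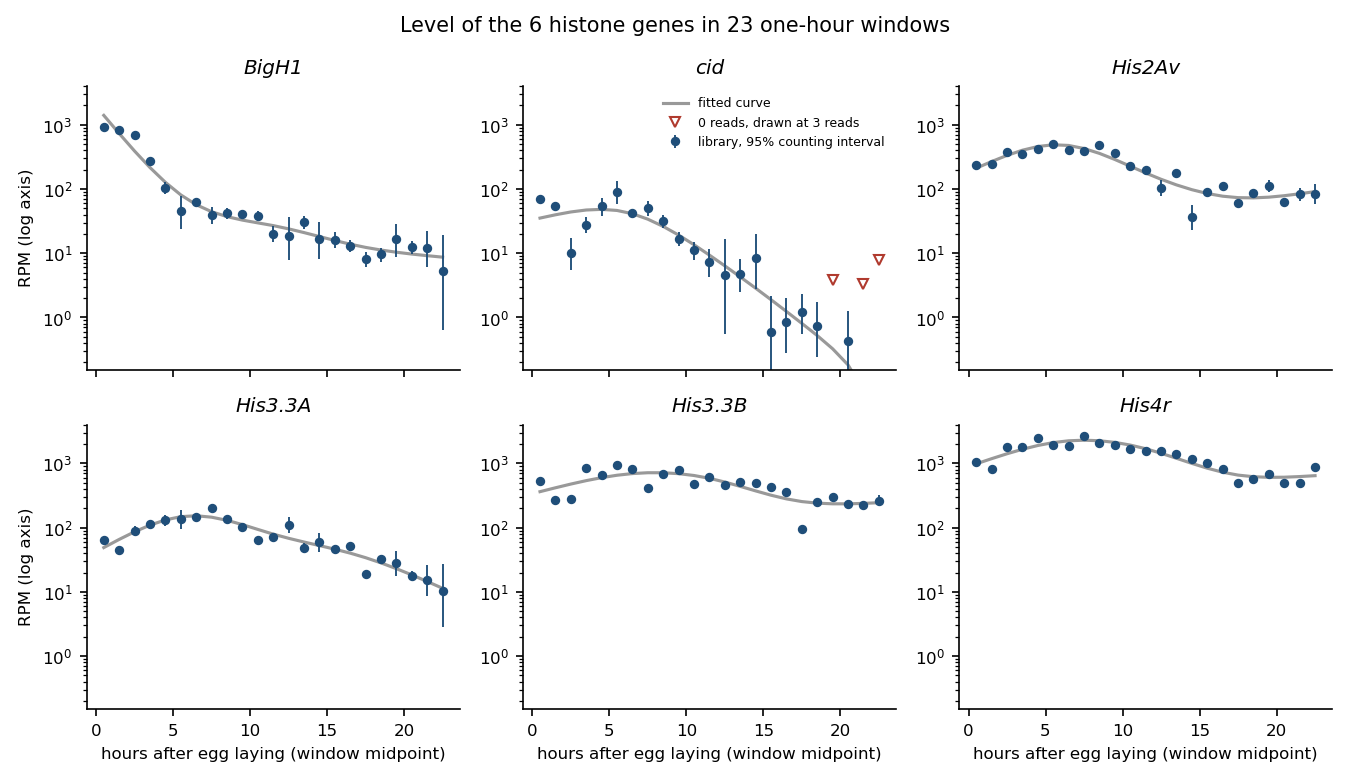
RPM of each of the 6 genes (log axis) against the midpoint of the window in hours after egg laying. Points are single libraries with 95% counting intervals, grey lines the fitted curves, and open triangles the 3 libraries with 0 reads of cid, drawn at the value of 3 reads. BigH1 drops from 913 to 45.4 RPM between 0-1 and 5-6 h, whereas His3.3A and His4r are highest at 7-8 h.

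All 6 genes passed the filter on low values, a highest window of at least 10 RPM and at least 50 reads over the series. A smooth curve of time, a natural spline with 4 degrees of freedom, was fitted to log2(RPM + 1) of every gene, and limma tested the curve against a constant level, with Benjamini-Hochberg adjustment over the 8716 genes. Changes with time were called for 6 of the 6 genes, beside 93.2% of all genes tested, so that the call itself does not set them apart. For His3.3B it was lost under TMM scaling (adjusted p = 0.077), with edgeR's quasi-likelihood test (0.063) and with DESeq2 (0.17). The shape of each profile is therefore given with its values.

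BigH1, the embryonic linker histone, was an early transcript. Its level was 913, 839 and 700 RPM in the first 3 windows, followed by 271, 104 and 45.4 RPM in the next 3. It was thus high and nearly flat before 3 h, then lower window after window until 6 h. The step from 2-3 to 3-4 h was a 2.58-fold drop (95% counting interval 2.31 to 2.89), that to 4-5 h a 2.60-fold drop (2.06 to 3.33) and that to 5-6 h a 2.29-fold drop (1.27 to 4.49, from 13 reads). Over the remaining windows the RPM went down slowly and unevenly, from 62.5 RPM at 6-7 h to 5.25 RPM at 22-23 h, the latter from 2 reads. With TMM the level was 54.0 at 6-7 h, 17.1 at 11-12 h and still 18.0 at 21-22 h. The windows of 0-8 h held 90.9% of the RPM summed over the series.

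Fitted to the curve, BigH1 fell by 2.94 ± 0.22 (SE) on the log2(RPM + 1) scale from 0-8 h to 8-16 h (limma, adjusted p = 2.6e-11), and by 2.77 with TMM. From 8-16 h to 16-23 h it fell by 1.15 ± 0.23 (adjusted p = 9.1e-05) with RPM and by 0.59 (0.041) with TMM, and with edgeR that second difference was -0.56 and missed the threshold (0.054). With a pseudocount of 10 RPM it was -0.76 and was called. Its late reads were few but present in every library: 313 of its 22752 reads, or 1.38% (95% Wilson interval 1.23 to 1.54), came from 16-23 h. Such a share of raw reads gives deep libraries more weight. Of the RPM summed over the series, 2.36% lay in 16-23 h. The maternal mRNAs osk, pgc and nos had 1.04%, 0.546% and 0.347% of their reads there, and bcd 15.3%. The BigH1 share of raw reads lies above those of the first 3 and below that of bcd, and the part of such late reads in the BigH1 values was not tested.

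cid, the Drosophila CENP-A, followed another course. It stood at 70.9 RPM at 0-1 h and 54.2 RPM at 1-2 h, then at 10.2 RPM (13 reads) at 2-3 h. At 3-4 h it was still low, with 27.4 RPM (50 reads, 95% counting interval 20.4 to 36.1). It was back at 53.3 RPM by 4-5 h and 90.8 RPM (26 reads) at 5-6 h. The profile thus has an early low point between a first and a second high level. The step into 2-3 h was a 5.32-fold drop (95% counting interval 3.09 to 10.0). It rests on 1 library, in which cid lay 2.00 below its own curve on the log2 scale, beyond the 5th percentile of all genes there (-1.40), while 50.5% of genes lay below their curves.

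From 8 h on the level of cid went down, passing 31.2 RPM at 8-9 h, 7.30 RPM at 11-12 h and, with 2 reads, 0.598 RPM at 15-16 h. No read was found at 19-20, 21-22 and 22-23 h, where the 3 reads that a count of 0 allows correspond to 3.85, 3.33 and 7.88 RPM. Only 22 of its 2107 reads came from 16-23 h, where its highest value was 1.22 RPM, below the lowest value of 0-8 h, 10.2 RPM. cid fell by 2.28 ± 0.34 on the log2 scale from 0-8 h to 8-16 h (limma, adjusted p = 2.5e-06) and by a further 2.66 ± 0.34 to 16-23 h (2.6e-07). With TMM the falls were 2.11 and 2.39 and both stayed called. The sizes depend on the pseudocount. With 10 RPM in place of 1 RPM the differences were -1.46 and -0.88, and with 0.1 RPM they were -2.49 and -4.46, all of them called.

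His2Av, the only H2A variant of the fly, which serves the roles of H2A.Z and of H2A.X in other animals, was highest between 2 and 10 h. Over 0-8 h it ranged from 234 (0-1 h) to 496 RPM (5-6 h), with a median of 385 RPM. It was still at 480 RPM at 8-9 h, then reached 228 RPM at 10-11 h and 90.3 RPM at 15-16 h, and stayed between 59.8 and 112 RPM from 16 h on. The late values lie below all values of 0-8 h, but the windows of 8-16 h overlap both neighbours. Its lowest value, 37.0 RPM at 14-15 h, comes from 22 reads of a library of 593906, and both neighbouring windows were higher (179 and 90.3 RPM).

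His2Av fell by 1.15 ± 0.21 from 0-8 h to 8-16 h (limma, adjusted p = 3.5e-05), and by 0.98 with TMM (2.6e-04). From 8-16 h to 16-23 h it fell by 1.07 ± 0.21 (8.7e-05) with RPM. With TMM that second difference was -0.48 and missed the threshold (0.056), and with edgeR it was -0.55 and passed it (0.019).

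His3.3A and His3.3B encode the same H3.3 protein from separate genes. His3.3A was lowest early at 1-2 h (45.1 RPM), highest at 7-8 h (204 RPM) and at 10.5 RPM (4 reads) at 22-23 h, and its median was 122 RPM over 0-8 h, 68.5 RPM over 8-16 h and 18.8 RPM over 16-23 h. In RPM, apart from 16-17 h (51.0 RPM), every window after 16 h lay below every earlier one. With TMM this separation was lost, as 18-19 h (48.5) lay above 1-2 h (36.7) and 13-14 h (43.4). The 19-20 h value (36.9) was then close to that of 1-2 h. The late fall was 1.72 ± 0.19 with RPM (limma, adjusted p = 1.5e-08) and 1.14 with TMM (6.2e-06). From 0-8 h to 8-16 h the difference was -0.45 ± 0.18 (0.037) with RPM, but -0.28 with TMM (0.18), and it also missed the threshold with edgeR (0.16), a spline of 3 degrees of freedom (0.16) or libraries thinned to the shallowest (0.13).

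His3.3B ranged from 266 (1-2 h) to 957 RPM (5-6 h) in 0-8 h, from 432 to 802 RPM in 8-16 h and from 94.0 to 357 RPM in 16-23 h. Its early windows were uneven, going from 534 RPM at 0-1 h down to 281 RPM at 2-3 h, up to 855 RPM at 3-4 h and down again to 409 RPM at 7-8 h. From 0-8 h to 8-16 h no difference was called (-0.07 ± 0.24, limma, adjusted p = 0.81, and 0.10 with TMM). The late difference was -1.06 ± 0.25 (4.9e-04) with RPM, and -0.48 with TMM, where it missed the threshold (0.083), as it did with edgeR (0.089). The lowest value, 94.0 RPM from 694 reads at 17-18 h, was 3.79-fold under that of 16-17 h (95% counting interval 3.48 to 4.14), and 254 RPM followed at 18-19 h. At 17-18 h His3.3B lay 1.43 below its curve, past the 5th percentile of all genes there (-0.91), and 65.6% of genes lay below theirs. Without that library the late difference was -0.89.

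**Figure D2:**
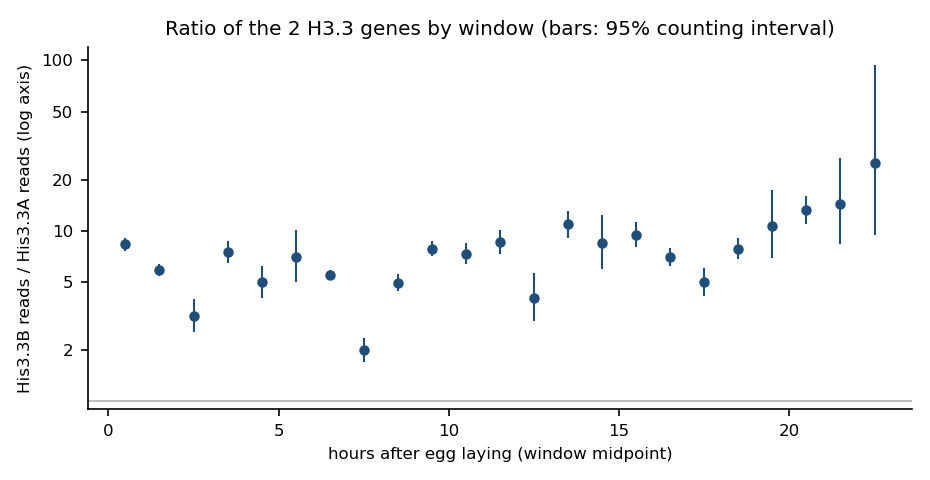
Reads of His3.3B divided by reads of His3.3A in each window (log axis) against hours after egg laying, with 95% counting intervals. The ratio is above 1 in every library, lowest at 7-8 h (2.00) and highest at 22-23 h (25.0).

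His3.3B supplied most of the H3.3 transcript starts in every window, between 66.7% (7-8 h) and 96.2% (22-23 h) of the reads of the pair. The ratio of His3.3B to His3.3A started at 8.33, was 3.18 at 2-3 h and 5.52 at 6-7 h, and reached its minimum of 2.00 (95% interval 1.71 to 2.34) at 7-8 h. From 19 h on it was 10.7 (6.92 to 17.4), 13.3 (11.0 to 16.1), 14.4 (8.36 to 26.7) and finally 25.0 (9.47 to 93.5). The last 4 windows are thus among the highest, though the last one rests on 4 reads of His3.3A. The fitted range of the log2 ratio of His3.3A to His3.3B was 2.17, and a permutation test of the spline over the 23 windows gave p = 0.0035 (100000 resamples). The same permutation test gave a range of 1.56 and p = 0.056 without the 22-23 h library, and p = 0.059 with a pseudocount of 10 RPM, so the call depends on that library and on how low values are treated.

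His4r, the replacement H4 gene outside the histone cluster, encodes the same H4 protein as the clustered genes. It was the most abundant of the 6 in all windows but 1-2 h. The level was 1041 and 818 RPM in the first 2 windows, went up to 2440 RPM by 4-5 h and was highest at 7-8 h with 2680 RPM, where it ranked 32nd of all genes. From 2 h to 16 h it stayed at or above 1002 RPM, and it lay between 489 and 890 RPM afterwards. In RPM, the windows of 16-23 h overlap those of 0-8 h only through 1-2 h. With TMM the late windows ran from 740 to 1023, so that 0-1 h (791) lay within them and 1-2 h (665) below them. Its early low point at 1-2 h was followed by 1796 RPM at 2-3 h.

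From 0-8 h to 8-16 h the difference of His4r was -0.16 ± 0.15 and was not called (limma, adjusted p = 0.33), and with TMM its sign turned (0.01, 0.96). The late fall was 1.20 ± 0.15 (1.1e-07) with RPM and 0.61 with TMM (2.0e-04). All 6 genes were thus called lower in 16-23 h than in 8-16 h with RPM, beside 53.6% of all genes, and 4 of them (all but His2Av and His3.3B) with TMM, beside 27.7%. In the earlier difference 4 of 6 were called lower, beside 30.2% of all genes, and 3 of them with TMM (BigH1, cid and His2Av), beside 23.9%. None was called higher in either difference, beside 32.2% and 19.1% of all genes. Over the 6 genes the median difference was -0.80 and then -1.18 with RPM, where all genes had -0.01 and -0.65. With TMM it was -0.63 and -0.60, where all genes had 0.12 and -0.12.

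**Figure D3:**
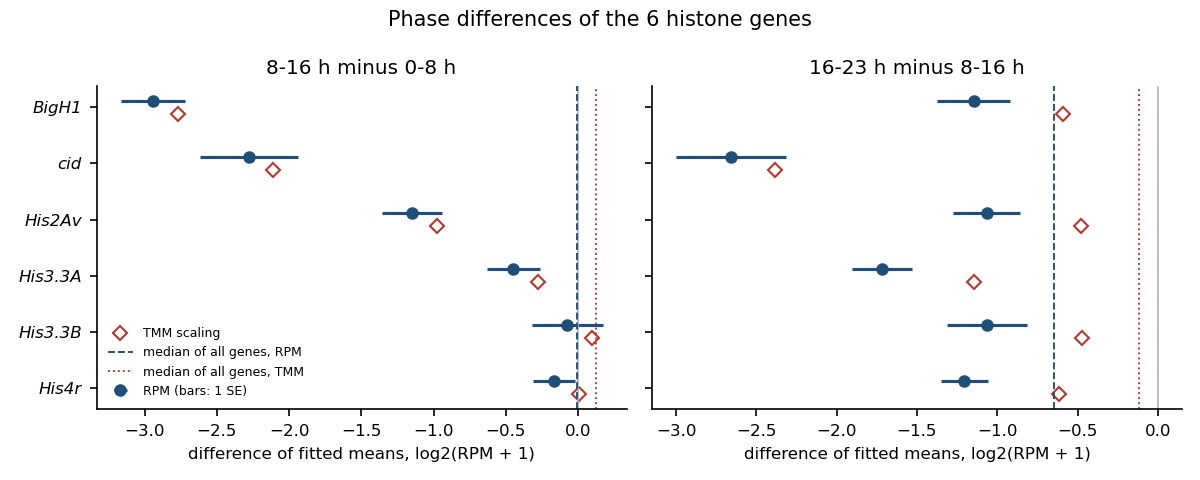
Differences of the fitted means between phases on the log2(RPM + 1) scale, 8-16 h minus 0-8 h on the left and 16-23 h minus 8-16 h on the right. Filled points are the RPM fit with 1 SE, open diamonds the TMM fit, and the vertical lines the median of all 8716 genes in each fit. BigH1 (-2.94) and cid (-2.28) have the largest early differences of the 6, and all 6 late differences move toward 0 with TMM.

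At the level of start sites, His3.3A, cid and BigH1 each had 1 TSC, which held 100% of the gene's reads. BigH1 began in the cluster chr3R:10489121-10489253 (plus strand), 133 bp wide, and His3.3A in chr2L:5055085-5055202 (plus strand), 118 bp wide, and cid in chr2R:9373087-9373244 (plus strand), 158 bp wide, in coordinates of build dm3. The other 3 genes had 4 or 5 TSCs, of which 1 dominated. It held 96.6% of the reads of His2Av (chr3R:22692558-22692732, plus), 94.8% of those of His3.3B (chrX:9050652-9050773, minus) and 95.7% of those of His4r (chr3R:10451438-10451566, plus). Of the 16 TSCs, 11 passed the filter, and all 11 were called time dependent (limma, adjusted over 12109 TSCs), beside 93.3% of TSCs tested. For the dominant TSC of His3.3B the call was lost with TMM (adjusted p = 0.14) and with edgeR (0.11).

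A minor His3.3B cluster had a course unlike that of its gene. The TSC at chrX:9049016-9049045 (minus strand) begins 1728 bp downstream of the dominant one and is called His3.3B TSC 03 here. The newer BDGP6.54 annotation lists 3 distinct 5′ ends for this gene, the others lying 1056 and 1657 bp downstream of the first; the builds were not aligned. The cluster had 0 to 8.23 RPM in 0-8 h, 22.1 to 43.8 RPM in 8-16 h and 1.63 to 17.4 RPM in 16-23 h. It was thus mainly a cluster of mid-embryogenesis, with the windows of 8-16 h above all others in RPM. The margin was small, with 22.1 RPM (59 reads) at 8-9 h beside 17.4 RPM (103 reads) at 16-17 h. Whether this order of single windows holds with TMM was not tested. It rose by 3.62 ± 0.32 on the log2 scale from 0-8 h to 8-16 h (limma, adjusted p = 3.2e-10) and fell by 2.41 ± 0.33 to 16-23 h (4.7e-07), with 3.63 and -1.91 under TMM. These sizes also depend on the pseudocount, with 5.02 and -2.74 at 0.1 RPM and 1.72 and -1.36 at 10 RPM, all called. For comparison, 33.3% of all TSCs were called higher in the first difference and 52.3% lower in the second.

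Its share of the His3.3B reads was 0.068% at 0-1 h (3 of 4414), 1.00% at 6-7 h, 3.29% at 8-9 h, 9.05% at 12-13 h (95% Wilson interval 5.80 to 13.8) and 8.75% at 14-15 h (6.04 to 12.5). By 17-18 h it was 1.73% (0.99 to 3.00). The dominant TSC showed no called difference from 0-8 h to 8-16 h (-0.18, adjusted p = 0.53, and -0.03 with TMM), and was called lower in 16-23 h with RPM (-0.996, 9.8e-04) but not with TMM (-0.41, 0.14). A quasi-binomial test of the dominant TSC against TSC 03 over the same spline was called (adjusted p = 3.6e-10 over 1907 genes), beside 61.7% of genes tested.

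**Figure D4:**
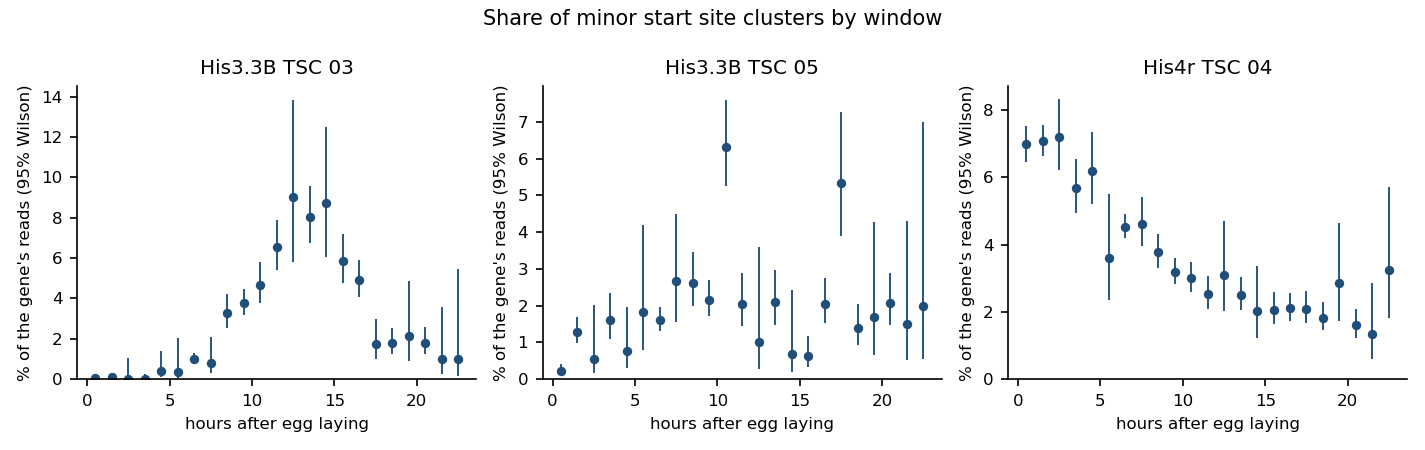
Share of the gene's reads at 3 minor TSCs against hours after egg laying, with 95% Wilson intervals. His3.3B TSC 03 is highest between 12 and 15 h (8.04 to 9.05%), His3.3B TSC 05 shows single high windows at 10-11 h (6.32%) and 17-18 h (5.33%), and His4r TSC 04 goes from 6.98% at 0-1 h to 1.60% at 20-21 h.

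Another minor cluster of His3.3B, TSC 05 at chrX:9047144-9047300, lies 3473 bp downstream of the dominant start. The last annotated 5′ end of this gene lies 1657 bp downstream of the first, in a gene of 4147 bp. No annotated 5′ end is thus at a like distance, and whether TSC 05 is a promoter was not tested. It reached 30.3 RPM (104 reads) at 10-11 h and stood at 7.28 RPM at 16-17 h and 5.01 RPM at 17-18 h. Over that same step the dominant TSC went from 330 to 85.0 RPM and TSC 03 from 17.4 to 1.63 RPM. The low His3.3B value of 17-18 h was therefore carried mainly by the dominant cluster. TSC 05 went down less in proportion than the dominant cluster and TSC 03. The share of TSC 05 in the gene's reads was 5.33% (3.89 to 7.26) at 17-18 h and 1.39% (0.930 to 2.05) at 18-19 h.

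His4r had a second cluster, TSC 04 at chr3R:10451707-10451751 (plus strand), 269 bp downstream of the dominant start. The BDGP6.54 annotation lists 2 distinct 5′ ends for His4r, the second 33 bp downstream of the first, in a gene of 860 bp. No annotated 5′ end is thus at a like distance, and whether TSC 04 is a promoter of its own was not tested. It had its highest level, 151 RPM, at 4-5 h. Its share was 6.98% at 0-1 h (95% Wilson interval 6.46 to 7.54), similar at 1-2 h (7.08%, 6.63 to 7.55), and smaller at 6-7 h (4.54%, 4.19 to 4.92). By 10-11 h it was 3.01% (2.60 to 3.49) and by 20-21 h it was 1.60% (1.23 to 2.09). The last windows had 1.33% (0.611 to 2.87, 6 reads) and 3.24% (1.82 to 5.72, 11 reads). The share of the gene's reads, though not the level of the cluster, was thus highest in the first hours. The change of use was called (quasi-binomial test, adjusted p = 2.1e-12). TSC 04 fell by 1.16 from 0-8 h to 8-16 h (limma, adjusted p = 1.1e-04, and called with TMM too), beside -0.12 (0.49) for the dominant TSC, whose difference turned to 0.04 with TMM. For His2Av, the change of use between its main TSC and the one 710 bp downstream was not called (adjusted p = 0.16), with 407 reads at the minor cluster.

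The genes whose profiles were most like those of the 6 were sought among 6741 genes with at least 25 RPM in a window and at least 500 reads, with Pearson's correlation across windows of the log2(RPM + 1) values. This is a description, since all points share their libraries. For cid they were Mis12 (0.97), a kinetochore protein, dgt2 (0.97), a subunit of the augmin complex, and Spindly (0.97), a kinetochore adaptor of dynein. For BigH1 they were CG11674 (0.97), CG31517 (0.96) and the kinase gene Tao (0.96). For His4r they were nonA (0.98) and glo (0.96), which encode RNA-binding proteins, and CG4751 (0.95), and for His2Av pzg (0.96), CG34224 (0.94) and Alms1a (0.94). His3.3A was nearest to pyd (0.94), Vti1b (0.94) and Sf3b6 (0.94). His3.3B had the weakest likenesses, with qkr58E-3 (0.88), the RNA helicase gene mle (0.87) and Caper (0.86). Among the 6 genes themselves the values ran from 0.31 (His3.3B and BigH1) to 0.90 (His3.3A and His4r).

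Genes that handle histones, variant or canonical, and early chromatin proteins were taken as 6 lists of 35 genes. Of these, 34 were in the table and 31 passed the filter. Not all of them act on the 6 genes' products, so the pooled counts are not about handlers of the variants alone. From 0-8 h to 8-16 h, 29 of the 31 were called lower and 1 higher, and from 8-16 h to 16-23 h, 28 were called lower and none higher, beside 30.2% and 53.6% of all genes called lower. With TMM, 26 were lower and 1 higher in the first and 19 lower and 1 higher in the second, where 23.9% and 27.7% of all genes were called lower and 35.5% and 26.4% higher. The median difference of the 31 genes was -1.13 and then -1.16 with RPM, beside -0.01 and -0.65 over all genes, and -0.96 and -0.62 with TMM, beside 0.12 and -0.12. The counts of each list below stand beside these same shares of all genes.

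Among genes for H3.3 deposition, 4 of 5 were tested, 3 fell in the first difference (beside 30.2% of all genes) and 4 in the second (2 with TMM, beside 53.6% and 27.7% of all genes). asf1, an H3-H4 chaperone, fell by 2.75 ± 0.30 in the first (limma, adjusted p = 1.4e-08, and -2.57 with TMM), from a highest level of 156 RPM at 0-1 h. yem, which encodes the partner of Hira, had the highest level of the list, 674 RPM at 1-2 h. Chd1 was at -0.17 (0.47). Hira itself, with 178 reads and at most 6.32 RPM, did not pass the filter. All 3 CAF-1 subunits, which load H3-H4 behind the replication fork, fell in both differences, with 2 of 3 still called in the second with TMM. Caf1-105 fell most in the first, by 2.82 ± 0.28 (2.9e-09, and -2.64 with TMM), and Caf1-55 least, by 1.44 ± 0.23 (7.2e-06, and -1.27 with TMM). Caf1-55 had the highest level of the 3, 259 RPM at 2-3 h.

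For H2Av exchange, 13 of 14 genes of the Domino and Tip60 complex were tested. All 13 were called lower in the first difference (10 with TMM), beside 30.2% of all genes (23.9% with TMM), and 11 in the second (9 with TMM), beside 53.6% (27.7% with TMM). dom, the ATPase that exchanges H2Av, reached 1492 RPM at 6-7 h and fell by 1.67 ± 0.32 (limma, adjusted p = 7.5e-05, and -1.50 with TMM). Tip60, the acetyltransferase, had the smallest difference, -0.47 (0.023), which missed the threshold with TMM (0.13). Of the centromere list, cal1, the Cid chaperone, fell by 1.14 ± 0.23 (1.5e-04, and -0.97 with TMM), from 510 RPM at 1-2 h, and Nlp, a nucleoplasmin-like protein, fell by 0.70 ± 0.12 (1.8e-05, and -0.52 with TMM), with its highest level at 5319 RPM. Both fell in the second difference as well, Nlp with either scaling and cal1 with RPM alone.

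**Figure D5:**
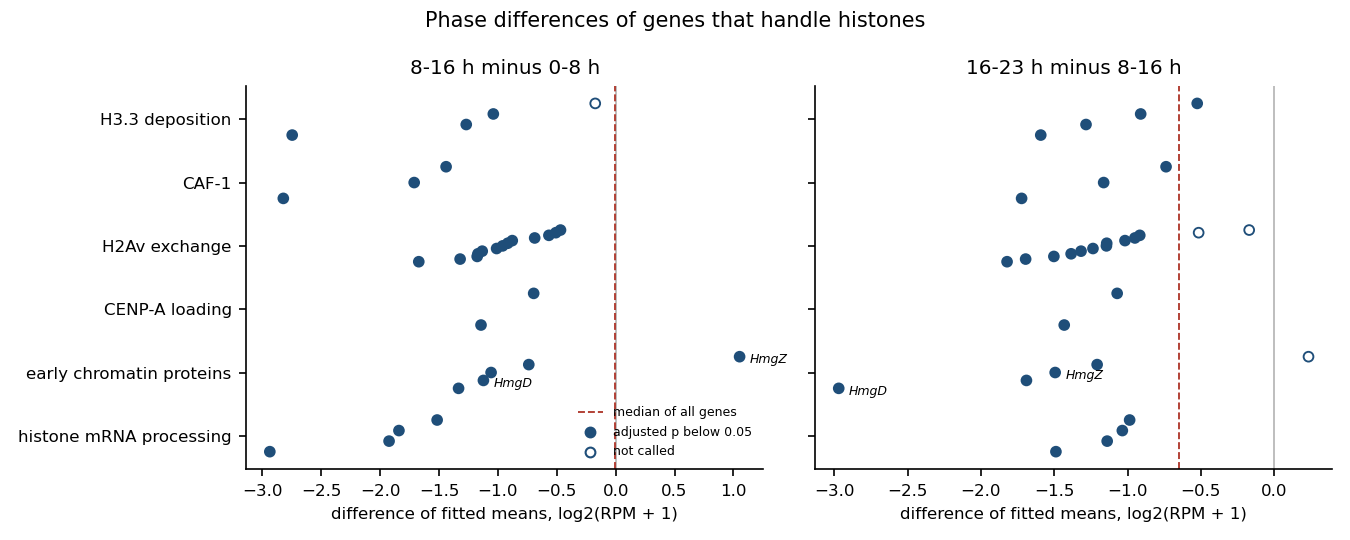
Differences of the fitted means for the 31 tested genes of 6 lists on the log2(RPM + 1) scale, 8-16 h minus 0-8 h on the left and 16-23 h minus 8-16 h on the right. Filled points were called (limma, adjusted p below 0.05), open points were not, and the dashed line is the median of all genes. HmgZ (1.05) is the single gene to the right of 0 on the left panel.

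In the list of early chromatin proteins, the HMG-box genes HmgD and HmgZ went opposite ways in the first difference. HmgD, which is abundant in early chromatin, had 8894 RPM at 4-5 h and fell by 1.12 ± 0.13 (limma, adjusted p = 3.7e-08). HmgZ had 4130 RPM at 7-8 h and rose by 1.05 ± 0.13 (2.2e-07), and with TMM these were -0.95 and 1.22. Both fell afterwards, HmgD by 2.97 ± 0.13 and HmgZ by 1.49 ± 0.14, with -2.38 and -0.90 under TMM. D1, an AT-hook protein, had the most negative first difference of the list, -1.33 ± 0.26 (1.1e-04, and -1.16 with TMM), and Nph and Nap1 fell as well. Nap1, an H2A-H2B chaperone, was at 0.23 (0.28) in the second and was called higher there with TMM (0.80, 0.0013).

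Genes for processing of the replication-dependent histone mRNAs complete the lists. 4 of 5 were tested, and all 4 fell in both differences, beside 30.2% and 53.6% of all genes, with 2 of 4 still called in the second with TMM, beside 27.7%. Slbp, which binds the stem-loop at the end of these mRNAs, fell by 2.94 ± 0.35 (limma, adjusted p = 7.0e-08, and -2.76 with TMM), from 105 RPM at 5-6 h. The smallest fall of the list was that of mute, 1.52 ± 0.32 (2.1e-04, and -1.35 with TMM). Lsm10, a protein of the U7 particle, had the highest level, 1318 RPM at 1-2 h. The clustered histone genes themselves were represented by a single row of the table, a His1 copy (His1:CG33801) with 253 reads over the series and at most 17.5 RPM. Levels of the canonical histones were therefore not analysed here.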

How the data were processed

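All 23 samples were pooled after barcoding and shared 1 lane. Batches of collection or extraction are not given in the sources used here. Reads had been mapped by the authors with STAR to build dm3, and TSCs called on the pooled series. The deposited tables give RPM, scaled by the authors to the reads of each library in TSCs, and gene values are sums of TSCs. The deposited BED file gave positions (other values, not tested). A further deposited table of gene Z-scores was not used. In 100% of RPM values whole reads could be recovered (tolerance 0.001 reads). Of 10622 gene identifiers, 10252 had a symbol in the reference. Reads without a gene were 0.337 to 0.806% of a library.

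Splines were fitted with limma 3.58.1 (trend, robust) in R 4.3.3 on log2(RPM + 1), which understates changes of low genes. edgeR 4.0.16 and DESeq2 1.42.0 on recovered reads, TMM, other pseudocounts (0.1 and 10 RPM), filters, spline sizes, thinning and leaving out each library were alternatives. With 1 library per window, the error is the scatter of windows around the curve. Permuted p-values and intervals cover scatter and counting error only. The dominant-against-second TSC test was a quasi-binomial regression with Williams weights. On simulated counts limma recovered 154 of 200 changed genes with 14.4% of calls false, edgeR 161 with 3.01%, and the quasi-binomial test 191 with 7.73%. The false shares of limma and the quasi-binomial test thus lay above the threshold of 0.05. In the simulation 200 of 7874 genes changed, whereas 93.2% of genes were called in the data, so these shares do not carry over to the calls here.

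The members, gene lists and tests were chosen with earlier results of these data known. The text names the 6 genes, the 3 genes most like each, and for each list the largest rise and fall and the highest level. Genes and start site clusters beyond this were named after their values were seen (Chd1, Tip60, mute, Hira, Nap1, Nph, TSC 05).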

Additional observations from a re-analysis of the deposited data

How the results depend on the processing

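No paired analysis was possible because each window holds 1 library and no replicate numbers link windows. With 1 library per window in the series used, no call here has a replicate check, and counts under about 20 reads limit cid, BigH1 and His3.3A late in the series. The cause of the changes below was not tested, except that stricter filters and thinning test fewer genes.

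Under TMM, the fitted range of His3.3B was 1.06, its differences 0.10 and -0.48, the early differences of His3.3A and His4r -0.28 and 0.0085, and the late difference of His2Av -0.48. For His4r TSC 03 the early difference was 0.035 with TMM and 0.017 with edgeR. With edgeR the range of His3.3B was 0.99 and its differences 0.021 and -0.45, the early difference of His3.3A -0.29 and the late one of BigH1 -0.56. For the dominant TSC of His3.3B the range was 0.82 with TMM and 0.92 with edgeR. DESeq2 gave His3.3B a range of 1.14. The early difference of His3.3A was -0.28 with 3 degrees of freedom and -0.43 after thinning. The H3.3 ratio had a range of 1.52 with a pseudocount of 10 RPM.

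Genes called lower late numbered 4671 with RPM, 2418 with TMM and 2358 with edgeR, against 1661, 2301 and 2369 higher, which moved the share of lower calls from 73.8% to 51.2% and 49.9%. Time dependence was called for 8127 genes, and for 4633 of those kept by filterByExpr, where 935 were higher early to mid and 278 higher late. Thinned libraries gave 1834 higher and 1670 lower early to mid and 978 higher late. Of TSCs, 11299 were called, 18016 without a filter, 4995 with filterByExpr and 6949 after thinning. Promoter use was called for 1176 genes, and for 650 with both TSCs at 25 RPM.

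Leaving out each library in turn, the early difference of His3.3A ranged from -0.58 to -0.36 and missed the threshold without any of 8 libraries (0-1, 2-3, 3-4, 4-5, 9-10, 10-11, 11-12 or 13-14 h), with adjusted p up to 0.10. That of His3.3B ranged from -0.18 to 0.071, never called. The ratio ranged from 1.56 to 2.39, and all other calls of the 6 genes stayed. Without the 4 libraries under 600000 reads together, an alternative chosen after seeing the data, every call of the 6 genes stayed.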
